A study of Mus musculus with 10 samples.

Results

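The 34 genes described here carry glucose into the cell, break it down to lactate through glycolysis, or pass it through the pentose phosphate pathway. They were chosen by their known role, from the names of the enzymes and transporters, and make up 34 of the 15075 genes measured. All 34 were found in the table of interscapular brown adipose tissue (iBAT) from 5 Control and 5 AdCKO libraries. AdCKO mice lack cardiolipin synthase in fat cells: both alleles of Crls1 were floxed and Adipoq-Cre, which is active in white and brown adipocytes, removed the floxed exon. Control mice carried the same floxed alleles without Cre and are labelled wild-type. All mice were C57BL/6, 20 weeks old and housed at room temperature. The study compared the 2 genotypes to learn which genes of iBAT depend on cardiolipin synthesis, and its polyadenylated RNA was sequenced. The labels number the libraries as replicates without naming the animals, so the p-values measure the spread between these samples.

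Brown fat takes up glucose through the insulin-responsive transporter GLUT4 (Slc2a4) and the basal transporter GLUT1 (Slc2a1), and hexokinase traps it in the cell by phosphorylation. Phosphofructokinase commits the sugar to glycolysis, which yields pyruvate for the mitochondria or lactate for export, while the pentose phosphate pathway branches off at the first phosphorylated sugar and makes NADPH for fatty acid synthesis. Several of these steps have isoenzymes that differ between adipocytes, muscle and immune cells.

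Values are normalized reads per kb of counted exon, so levels can be compared roughly between genes, less so for Eno1 with 127 counted bases. A gene was called higher or lower at an adjusted p under 0.01 in limma, fitted on log2(value + 1) over the 11244 genes whose average reached 10 in Control or AdCKO. Fold changes are on this scale and understate the change of low genes. Crls1 itself lay between 813 and 1291 in Control and between 193 and 249 in AdCKO. In 3 of the AdCKO libraries, numbers 1, 2 and 4, the 17 skeletal muscle markers summed to 8892, 34673 and 13190, against 336 and 346 in AdCKO 3 and 5 and 520 to 553 in Control. Muscle creatine kinase (Ckm) was 1390.0, 5354 and 1985 in those 3 libraries, 9.50 and 11.9 in AdCKO 3 and 5, and 12.0 to 14.5 in Control. Results are therefore also given for AdCKO 3 and 5 alone. The 15 macrophage markers summed to between 708 and 2162 in Control and between 7934 and 10820 in AdCKO, and 13 of the 14 tested were higher. The 10 adipocyte markers fell from sums of 185929 to 220352 in Control to 128340 to 151950 in AdCKO. Of these, 6 were called lower and 1 higher, and of the 10 brown adipocyte markers 6 were lower and none higher. Over all tested genes 28.0% were lower and 25.6% higher. With every library scaled to the same total, 2 adipocyte markers were lower and 2 higher, and 5 brown adipocyte markers were lower and 2 higher. At that scaling 13 macrophage markers were higher, and 9.77% of all genes were lower and 60.6% higher. In bulk tissue, fewer cells of a type and less RNA per cell cannot be told apart.

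Promoters of 4 members are shown so that windows of genes that went in opposite directions can be set side by side: transketolase (Tkt) and hexokinase 2 (Hk2) were lower in AdCKO, and Slc2a1 and the lactate transporter Slc16a1 were higher. The sequences are from the RefSeq table on GRCm38.p6, cover 250 bases before and 50 after the start and read 5′ to 3′ on the gene's strand. They lie at chr14:30548881-30549180 (plus strand, Tkt), chr6:82774405-82774704 (minus strand, Hk2), chr4:119108495-119108794 (plus strand, Slc2a1) and chr3:104638414-104638713 (plus strand, Slc16a1). Capitals mark the hypoxia response core ACGTG or GCGTG on either strand and the E-box CACGTG.
Tkt: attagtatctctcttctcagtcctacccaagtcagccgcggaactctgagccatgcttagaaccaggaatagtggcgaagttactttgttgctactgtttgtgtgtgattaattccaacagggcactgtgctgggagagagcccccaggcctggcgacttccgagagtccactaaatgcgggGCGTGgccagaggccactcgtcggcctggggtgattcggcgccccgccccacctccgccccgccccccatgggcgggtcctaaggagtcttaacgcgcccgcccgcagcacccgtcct
Hk2: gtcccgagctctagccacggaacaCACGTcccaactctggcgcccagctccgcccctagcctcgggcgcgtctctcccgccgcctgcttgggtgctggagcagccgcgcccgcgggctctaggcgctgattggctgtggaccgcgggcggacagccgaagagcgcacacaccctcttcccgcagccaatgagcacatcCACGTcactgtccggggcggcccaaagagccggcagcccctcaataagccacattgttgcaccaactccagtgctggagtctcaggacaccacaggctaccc
Slc2a1: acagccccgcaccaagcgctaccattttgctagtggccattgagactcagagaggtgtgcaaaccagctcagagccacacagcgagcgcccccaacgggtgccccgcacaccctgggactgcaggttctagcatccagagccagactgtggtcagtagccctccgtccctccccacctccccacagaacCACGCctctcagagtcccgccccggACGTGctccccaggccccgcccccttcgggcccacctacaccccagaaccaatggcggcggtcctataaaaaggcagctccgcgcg
Slc16a1: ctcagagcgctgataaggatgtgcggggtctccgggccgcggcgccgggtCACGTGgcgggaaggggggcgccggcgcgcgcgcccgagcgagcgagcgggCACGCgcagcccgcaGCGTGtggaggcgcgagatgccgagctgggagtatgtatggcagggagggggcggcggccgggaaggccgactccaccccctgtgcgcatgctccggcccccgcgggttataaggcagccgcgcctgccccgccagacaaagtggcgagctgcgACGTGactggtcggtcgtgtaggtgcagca
The hypoxia response core is the motif bound by hypoxia-inducible factors, which are known to act on many glycolytic genes, and the E-box is the motif bound by ChREBP, MYC and related factors. An E-box always holds the hypoxia core on both strands, so the searches overlap. The table held 50 promoter windows for 32 of the members. Of these, 38 (76.0%) held the hypoxia core, against 43.8% of all 32851 promoter windows, and 5 (10%) held the E-box, against 7.15% of all. The core was found in 23 of 32 windows of members called lower and in 5 of 6 windows of members called higher. TGATGCAA, the composite core of the stress factors CHOP and ATF4, was found in none of the 50 windows and in 0.895% of all. These counts describe the windows and are not binding sites. Both words of the hypoxia core hold CG, and base content was not matched between members and all promoters. Some members hold several windows, and identical windows of a gene were counted once among the members but not among all promoters.

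Of the 34 members, 32 passed the level filter, 22 were lower in AdCKO and 5 were higher. Over all tested genes 28.0% were called lower and 25.6% higher. The 5 higher members were Slc2a1, Hk1, Hk3, Pfkfb4 and Slc16a1. The 5 that were not called were Pfkm, Pfkfb2, Tpi1, Slc16a3 and Rpia, and 2 members, Slc2a3 and Aldoc, were too low to be tested. Hk3 and Slc16a3 passed the filter only through their AdCKO mean. The median log2 fold change of the 32 was -0.90, against -0.01 over all tested genes. In 22 of the 32 tested members every AdCKO library lay below every Control library, and in 6 every AdCKO library lay above, against 26.4% and 24.5% of all tested genes. Together the 34 genes took 2.56% to 3.31% of all normalized reads in the Control libraries and 1.60% to 1.91% in the AdCKO libraries. Without Aldoa and Tkt, left out after their values were seen because they were the most abundant, the shares were 1.39% to 1.69% and 1.05% to 1.24%.

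With AdCKO 3 and 5 alone, 20 members were lower and 4 higher, where 19.7% and 18.8% of all genes were called. The summed normalized reads of a library were 7615403 to 8171138 in Control and 5419800 to 5843024 in AdCKO. Scaling every library to the same total raised the median of all genes by 0.47 on the log2 scale, and 18 members were then lower and 6 higher, against 9.77% and 60.6% of all genes. After that shift was subtracted, the log2 fold change of Tkt was -2.34 and that of Hk1 was 1.28. Subtracting it nearly restores the first fit for these genes, because each library was multiplied by 1 factor, so this is no separate check.

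**Figure D1:**
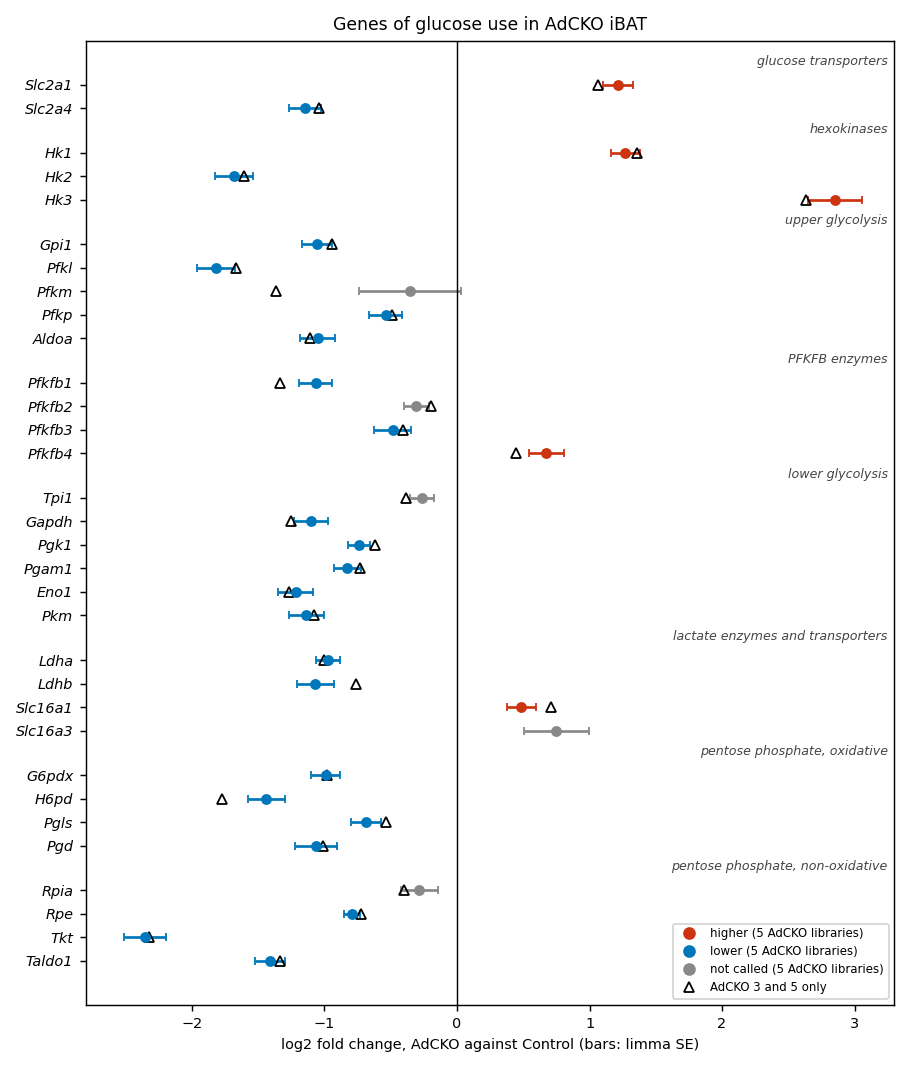
Log2 fold change of the 32 tested members in AdCKO against Control, grouped by role, with the limma SE as bars and colours for the call. Open triangles show the change with AdCKO 3 and 5 alone. Most members lay left of 0, Hk3 lay furthest right at 2.85, and Pfkm moved from -0.36 to -1.36 between the 2 sets of libraries.

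Among the glucose transporters, Slc2a4 fell and Slc2a1 rose. Slc2a4 (GLUT4, mm9 chr11:69755788-69761692), through which insulin raises glucose uptake in fat and muscle, measured 1782, 2619, 2117, 1843 and 2032 normalized reads per kb in Control 1 to 5 and 834, 934, 845, 892 and 1176 in AdCKO 1 to 5. No AdCKO library reached the lowest Control, and the mean went from 2078 ± 332 to 936 ± 139.9 (SD, n = 5). The log2 fold change with its SE was -1.15 ± 0.12 (adjusted p = 4.86e-06). Slc2a1 (GLUT1, mm9 chr4:118781350-118809934) carries glucose in most cell types without insulin. It measured 21.8, 24.2, 24.2, 27.8 and 21.5 in Control and 61.2, 57.6, 60.6, 63.5 and 42.6 in AdCKO. The groups did not overlap, although AdCKO 5 lay closest to Control, and the log2 fold change was 1.21 ± 0.11 (adjusted p = 1.78e-06). Slc2a3 (GLUT3, typical of neurons and leukocytes) was low everywhere, at 4.27 to 5.13 in Control and 5.86 to 10.3 in AdCKO, and was not tested. Even after these changes GLUT4 made up most of the transporter signal. Its share of the 3 transporters was 98.6% ± 0.230 in Control and 93.4% ± 1.53 in AdCKO (exact permutation p = 0.0079, adjusted p = 0.0143). The summed level of the 3 went from 1808 to 2648 down to 905 to 1226.

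The hexokinases, which phosphorylate glucose on entry, showed the largest change among the 9 isoenzyme shares tested, measured in RNA of bulk tissue. Hk2, the insulin-regulated form of fat and muscle (mm9 chr6:82675021-82724448), measured 1062, 1101, 737, 1088 and 1311 in Control and 265, 365, 308, 315 and 379.6 in AdCKO. Every AdCKO library lay at less than the lowest Control value, and the log2 fold change was -1.68 ± 0.14 (adjusted p = 8.04e-07). Hk1, the broadly expressed form (mm9 chr10:61731603-61842656), rose from 118, 121, 104, 167 and 133 in Control to 277, 324, 322, 288 and 329 in AdCKO. Its log2 fold change was 1.27 ± 0.11 (adjusted p = 1.06e-06). Mean levels of Hk1 and Hk2 thus stood at 308 ± 23.7 and 327 ± 46.1 in AdCKO, where the ranges overlap, while in Control they stood at 128 ± 23.8 and 1059.8 ± 206. Hk2's share of the 3 hexokinases was 88.5% ± 1.95 in Control and 47.4% ± 2.37 in AdCKO. That is a difference of -41.1 percentage points (exact two-sided permutation p = 0.0079, the smallest that 5 against 5 allows; 0.0143 after Benjamini-Hochberg adjustment over 9 isoenzyme shares). It was 48.1% in AdCKO 3 and 5. The total level was not kept: summed over the 3 genes, hexokinase was 852 to 1449 in Control and 588 to 752 in AdCKO.

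Hk3, the hexokinase of myeloid cells, was the member with the largest change. Its levels were 4.82, 5.77, 10.9, 5.16 and 5.45 in Control and 45.2, 62.6, 49.5, 62.4 and 37.7 in AdCKO, with a log2 fold change of 2.85 ± 0.20 (adjusted p = 1.96e-07). Hk3 was tested only because its AdCKO mean passed the level filter, and Control values this low may be moderated, which limits the size of its change. Control 3, the highest Control library for Hk3, was also the highest Control library for the summed macrophage markers, at 2162 against 708 to 1278 in the other 4. Cd68 and Lyz2 among those markers went from means of 59.3 and 469 to 977 and 5196. The part of macrophage RNA in the higher values of Hk3, Hk1, Slc2a1 and Pfkfb4 was not tested. Exons of Hk3 overlap those of Unc5a on the opposite strand, and the strand used in counting is not given in the sources used here.

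**Figure D2:**
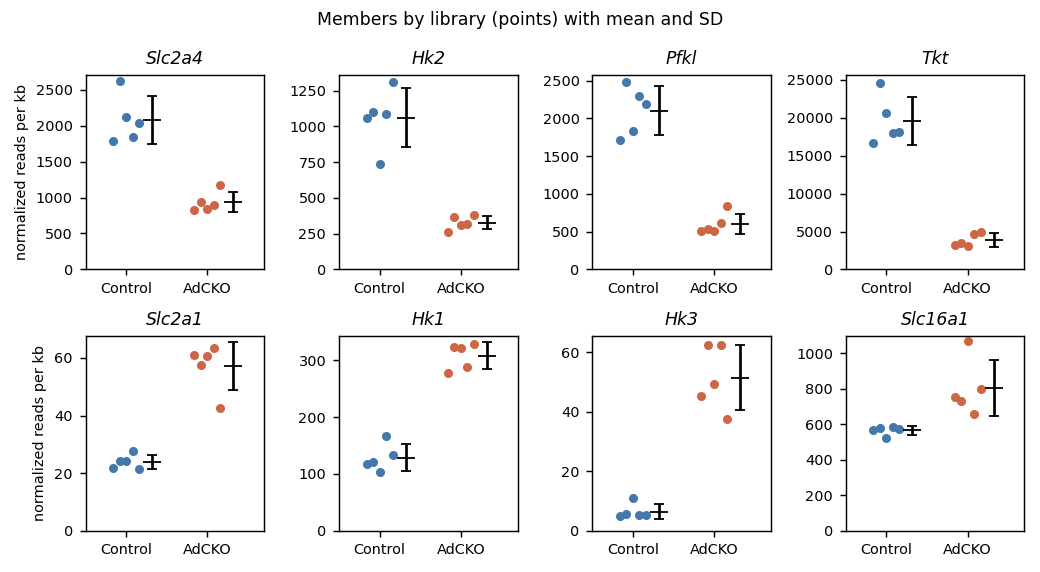
Normalized reads per kb of 8 members in each library (points; linear axes from 0), with mean and SD of the 5 libraries per group beside them. The upper row holds members that were lower in AdCKO (Slc2a4, Hk2, Pfkl, Tkt). The lower row holds members that were higher (Slc2a1, Hk1, Hk3, Slc16a1). In none of these 8 called members do the groups overlap. Over all tested genes, AdCKO lay wholly below Control in 26.4% and wholly above in 24.5%.

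In upper glycolysis, 4 of the 5 tested members were lower and none was higher, where 28.0% and 25.6% of all tested genes were called. Pfkl, the liver-type subunit of phosphofructokinase and the main one in these libraries, measured 1718, 2480.5, 1838, 2301 and 2185 in Control and 506, 539, 515, 609.8 and 834 in AdCKO. Its log2 fold change of -1.82 ± 0.15 (adjusted p = 5.01e-07) was the second largest fall among the members. Gpi1, glucose phosphate isomerase, fell from 3775 ± 429.8 to 1819.6 ± 253 (log2 fold change -1.06 ± 0.11). Pfkp, the platelet-type subunit, spanned 335 to 555 in Control and 249 to 317 in AdCKO. The change of -0.54 ± 0.12 on the log2 scale passed the test (adjusted p = 0.00209), and with AdCKO 3 and 5 alone it was -0.49 with an adjusted p of 0.0327. Pfkp shares exon bases with Pitrm1 on the opposite strand.

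Pfkm, the muscle-type subunit (mm9 chr15:97923020-97962878), split the AdCKO libraries. It was 281, 292, 274, 278 and 285 in Control and 273, 607, 99.7, 260.0 and 119 in AdCKO. The lowest values belonged to AdCKO 3 and 5, where Ckm was at or below its Control level, and the highest to AdCKO 2, where Ckm was highest. Over all 5 libraries the log2 fold change was -0.36 ± 0.38 (adjusted p = 0.432). With AdCKO 3 and 5 alone it was -1.36 ± 0.098 (adjusted p = 2.86e-06), and with the muscle marker score as a covariate it was -1.39 (adjusted p = 1.52e-05). The first fit rests on 2 libraries whose muscle markers summed to 336 and 346, below the 520 to 553 of Control. The score varies mostly through AdCKO 1, 2 and 4, so the 2 fits are not independent. The shares of Pfkl and Pfkp in the 3 phosphofructokinase genes changed, and that of Pfkm did not pass the test. The share of Pfkl was 75.0% ± 2.17 in Control and 52.6% ± 10.5 in AdCKO and that of Pfkp 14.8% ± 1.98 and 25.0% ± 3.73, both with an exact permutation p of 0.0079 and an adjusted p of 0.0143. For Pfkm the share was 10.2% ± 1.29 and 22.4% ± 13.3 (exact permutation p = 0.0794), and 10.3% in AdCKO 3 and 5. In those 2 libraries Pfkl made up 62.0% and Pfkp 27.6%.

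Aldoa, the aldolase of muscle and most other tissues, had the highest level of the members. It measured 25774, 35928, 28594, 30207 and 30931 in Control and 13314, 16873, 12233, 14807 and 15877 in AdCKO. No library overlapped, and the log2 fold change was -1.05 ± 0.13 (adjusted p = 1.77e-05) over all libraries and -1.11 in AdCKO 3 and 5. The fall was not seen after quantile normalization, where the log2 fold change was 0.027. Aldoc, the brain-type aldolase, stayed between 6.35 and 13.0 in all libraries and was not tested. Aldoa accordingly made up over 99.9% of the aldolase signal in every library, with a mean share of 99.97% in Control and 99.94% in AdCKO (exact permutation p = 0.0079).

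**Figure D3:**
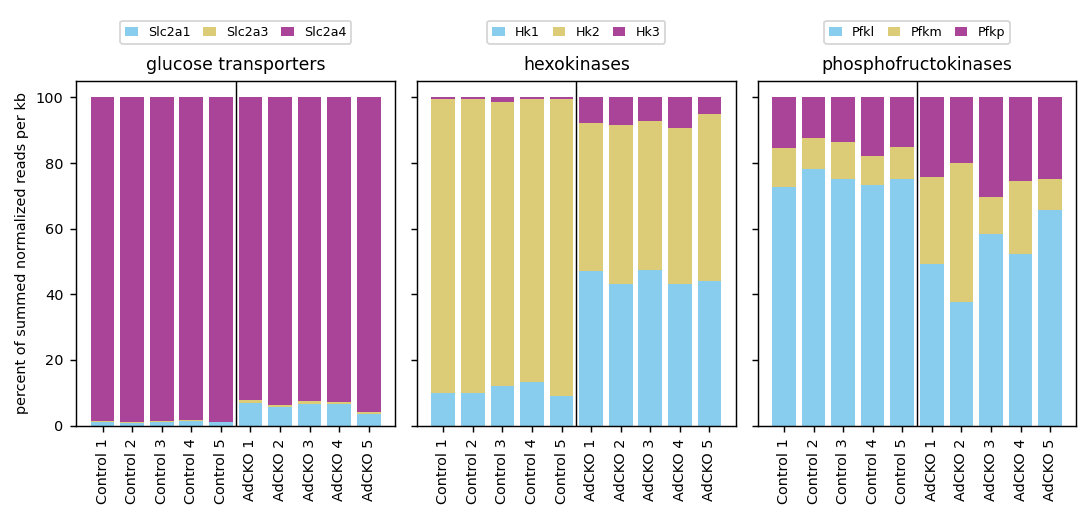
Composition of 3 isoenzyme families in each library, as percent of the summed normalized reads per kb of the family (stacked bars, 5 Control libraries left of the line and 5 AdCKO libraries right). Hk2 went from 86.3% to 90.5% of hexokinase in Control to 45.2% to 50.8% in AdCKO, and the Pfkm share reached 42.4% in AdCKO 2.

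The PFKFB enzymes make and remove the sugar bisphosphate that switches phosphofructokinase on, and they did not move together. Pfkfb3, the inducible and by far the most abundant form, was 1476, 941, 992, 1449.6 and 1399 in Control and 864, 917, 837, 766 and 1023 in AdCKO. AdCKO 5 lay above Control 2 and 3, and the log2 fold change of -0.48 ± 0.14 passed the threshold narrowly (adjusted p = 0.00874). It no longer passed when any of 7 libraries was left out (adjusted p up to 0.0252). Pfkfb1, the form of liver and muscle, fell from 163 to 213 in Control to 93.4, 116, 71.5, 103 and 81.1 in AdCKO, with the 2 lowest values in AdCKO 3 and 5. The log2 fold change was -1.07 ± 0.13 over all libraries and -1.33 in those 2. Pfkfb4 rose from 19.9 ± 3.17 to 32.2 ± 4.92 (log2 fold change 0.67 ± 0.13, adjusted p = 7.12e-04) without overlap, and in AdCKO 3 and 5 the change was 0.45 (adjusted p = 0.0385). Pfkfb2 had 18.8 ± 1.84 and 15.0 ± 1.33 and was not called (adjusted p = 0.013), although its groups did not overlap, and its exons overlap Yod1. Pfkfb3 held 83.8% ± 3.83 of the family in Control and 86.2% ± 2.39 in AdCKO (exact permutation p = 0.278).

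Lower glycolysis, from triose phosphate to pyruvate, had 5 members lower and Tpi1 not called, beside 28.0% of all tested genes lower. Pkm, pyruvate kinase of muscle and most tissues, measured 7471, 9917, 8110.2, 9135 and 9165 in Control and 3402, 3801, 3379.5, 4444 and 5052 in AdCKO (log2 fold change -1.14 ± 0.13, adjusted p = 8.97e-06). After quantile normalization its log2 fold change was -0.31 and it was not called (adjusted p = 0.0282). Gapdh, which makes NADH and is often used as a reference gene, went from 1486, 2146, 1685, 2011 and 1753 to 848, 1019.9, 644, 849 and 887. That is a log2 fold change of -1.10 ± 0.13 with no overlap. Pgk1, which with pyruvate kinase makes the ATP of glycolysis, fell by 0.74 ± 0.085 on the log2 scale. At equal library totals, where all genes shifted upward by 0.47, its value was -0.26 and it was not called (adjusted p = 0.0112). Pgam1, phosphoglycerate mutase, fell by 0.83 ± 0.10 and Eno1, enolase, by 1.22 ± 0.13. The Eno1 value rests on 127 counted bases, far fewer than in any other member. Tpi1, triose phosphate isomerase, was 2349 ± 152 in Control and 1965 ± 237 in AdCKO (log2 fold change -0.26 ± 0.09, adjusted p = 0.0216). Its AdCKO values were 1964, 2364, 1743, 1896 and 1859, with AdCKO 2 inside the Control range of 2198 to 2587. Without AdCKO 2 it was called lower (log2 fold change -0.33, adjusted p = 0.00399), and its sign turned positive after quantile normalization (0.21). Spsb2 overlaps Tpi1 on the opposite strand.

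At the lactate end, both dehydrogenase genes fell and the lactate transporter Slc16a1 rose. Ldha, the form that favours lactate production, measured 8139.9, 9891, 8695, 9441 and 9179 in Control and 4303, 4926, 4217, 4821 and 4827 in AdCKO. This was a log2 fold change of -0.97 ± 0.089 (adjusted p = 1.47e-06), but after quantile normalization it was -0.13 and not called. Ldhb, the heart-type form, fell by a similar amount, from 4575 ± 424 to 2218 ± 519 (log2 fold change -1.07 ± 0.14). The share of Ldha in the 2 genes was 66.5% ± 1.83 and 67.8% ± 5.05 (exact permutation p = 0.595), and its difference changed sign in AdCKO 3 and 5. Slc16a1, the monocarboxylate transporter MCT1, was 567, 579.6, 522, 583 and 572 in Control and 753, 732, 1069.7, 656 and 797 in AdCKO. All AdCKO libraries lay above Control (log2 fold change 0.49 ± 0.11, adjusted p = 0.00214), AdCKO 3 furthest. Slc16a3, the exporter MCT4 of glycolytic muscle, was 6.97 to 7.94 in Control. In AdCKO it was 15.5, 25.5, 8.54, 13.5 and 8.09, so that the 3 libraries with muscle markers were the 3 highest. Its log2 fold change was 0.75 ± 0.25 (adjusted p = 0.0177) and 0.13 with the muscle score as a covariate. The share of Slc16a3 in the 2 transporters was 1.29% ± 0.120 in Control and 1.84% ± 1.02 in AdCKO (exact permutation p = 0.262). Csnk1d overlaps it on the opposite strand.

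**Figure D4:**
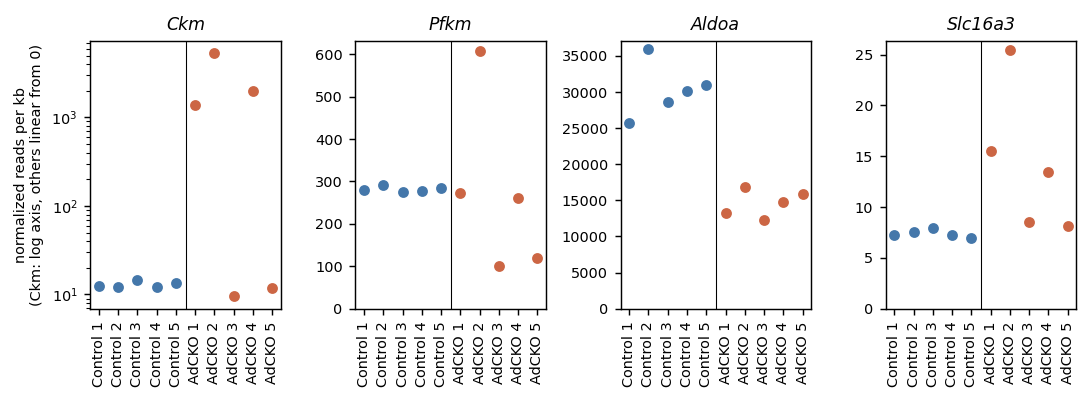
The muscle marker Ckm (log axis) and the members Pfkm, Aldoa and Slc16a3 (linear axes from 0) in each library, in normalized reads per kb. AdCKO 1, 2 and 4 have Ckm at 1390.0 to 5354 and are the 3 highest AdCKO libraries for Pfkm and Slc16a3, but not for Aldoa, where AdCKO 5 at 15877 stands above AdCKO 1 and 4.

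All 4 enzymes of the oxidative branch of the pentose phosphate pathway were lower, beside 28.0% of all tested genes. G6pdx, which starts the branch and makes the first NADPH, measured 1553, 1916, 1753, 1525 and 1576 in Control and 762, 779, 705, 963 and 1003 in AdCKO. The groups were far apart, with a log2 fold change of -0.99 ± 0.11 (adjusted p = 7.23e-06), and its exons overlap Ikbkg on the opposite strand. Pgd, which makes the second NADPH, fell from 4499 ± 964 to 2123 ± 322 (log2 fold change -1.07 ± 0.16). Pgls, the lactonase between them, fell by 0.69 ± 0.11, and by 0.54 in AdCKO 3 and 5 with an adjusted p of 0.011. H6pd, the dehydrogenase of the endoplasmic reticulum, was 597, 757, 617, 572 and 666 in Control and 277, 269, 170.4, 277 and 203 in AdCKO. As with Pfkfb1, the lowest values were those of AdCKO 3 and 5, and the log2 fold change was -1.44 ± 0.14 over all libraries and -1.77 in those 2.

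The largest fall of any member came in the non-oxidative branch, which returns pentoses to glycolysis. Tkt, transketolase (mm9 chr14:31362317-31387911), measured 16624, 24626, 20609, 17982 and 18142 in Control and 3224, 3492, 3033, 4683 and 4928 in AdCKO. The mean was 5.06 times higher in Control (log2 fold change -2.35 ± 0.16, adjusted p = 1.5e-07), and in AdCKO 3 and 5 alone the change was -2.33. Taldo1, transaldolase, which works beside it, was 4989.6, 7339, 5992, 5854 and 6489.5 in Control and 1996, 2243, 2245, 2413 and 2577 in AdCKO. Its log2 fold change was -1.41 ± 0.11 (adjusted p = 4.11e-07). Rpe, the pentose epimerase, fell from 423 ± 18.2 to 244 ± 13.3 (log2 fold change -0.79 ± 0.061). Rpe shares exon bases with 1110028C15Rik on the opposite strand. Rpia, the pentose isomerase, was the exception: it spanned 98.2 to 166 in Control and 84.6 to 116 in AdCKO and was not called (log2 fold change -0.28 ± 0.14, adjusted p = 0.0978). Summed over the 4 genes the branch went from 22128 to 32557 in Control to 5559 to 7838 in AdCKO.

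Genes around the pathway were read from 4 further lists. Their counts stand against the shares of all tested genes: 28.0% lower and 25.6% higher in the comparison of all libraries, 19.7% and 18.8% with AdCKO 3 and 5 alone, and 9.77% and 60.6% at equal library totals, where the median of all genes rose by 0.47. Of 34 other isoenzymes and side enzymes of glucose use, 30 were in the table and 21 were tested, of which 11 were lower and 4 higher (median log2 fold change -0.32, against -0.01 over all tested genes). With AdCKO 3 and 5 alone 10 were lower and 3 higher, and at equal library totals 6 were lower and 7 higher. The 4 with the smallest p were the mitochondrial D-lactate dehydrogenase Ldhd, the gluconeogenic enzyme Fbp2, the mutarotase Galm and a phosphoglucomutase. The last is listed under the symbol Pgm2, at mm9 chr4:99602056-99659899. Ldhd went from 646 ± 81.2 to 105 ± 22.7 and Fbp2 from 297 ± 55.9 to 50.9 ± 11.2. In the order named, the log2 fold changes of the 4 were -2.63, -2.53, -1.42 and -0.99. The muscle isoforms Pgam2 and Eno3 were not called. Pgam2 was 17.5 to 25.5 in Control and 233, 543, 17.7, 225 and 14.6 in AdCKO, and Eno3 was 40.9 to 56.4 in Control and 358, 823, 22.8, 304 and 26.7 in AdCKO. Both were thus high in the libraries with muscle markers and at or below Control in AdCKO 3 and 5.

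All 18 glycogen genes were tested, and 13 were lower and 1 higher (median -0.87). Ppp1r3b, which targets phosphatase to glycogen, measured 1312, 1403, 979, 1321 and 1390.1 in Control and 179, 263, 207, 275 and 273 in AdCKO, where the log2 fold change was -2.42 ± 0.14 (adjusted p = 4.14e-08). The liver-type phosphorylase Pygl, which releases glucose from glycogen, fell from 3865 ± 383 to 846 ± 202. The liver-type synthase Gys2 and the phosphorylase kinase subunit Phka2 fell by 1.16 ± 0.064 and 1.32 ± 0.080 on the log2 scale. The muscle phosphorylase Pygm followed the muscle markers, at 14.2 to 18.7 in Control and 255, 889, 17.8, 306 and 17.8 in AdCKO. With AdCKO 3 and 5 alone, 13 glycogen genes were lower and 1 higher, and at equal library totals 9 were lower and 3 higher.

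Of the 16 genes of glucose sensing and GLUT4 traffic, 8 were lower and 3 higher (median -0.20). With AdCKO 3 and 5 alone 3 were lower and 4 higher, near the shares of all genes in that comparison. With the muscle score as a covariate 4 were lower, where 22.5% of all genes were. After quantile normalization 4 were lower, where 31.1% of all genes were. At equal library totals 2 were lower and 9 higher, near the shares of all genes at that scaling. Mlxipl, which encodes the glucose-responsive factor ChREBP, measured 1277, 1866, 1427, 1569.9 and 1698 in Control and 355, 498, 414, 490.0 and 505 in AdCKO (log2 fold change -1.79 ± 0.12, adjusted p = 1.66e-07). Sort1, which sorts GLUT4 into its storage vesicles, fell by 0.87 ± 0.083. Tbc1d1, a Rab regulator of GLUT4 release, and Arrdc4, an inhibitor of glucose uptake, rose by 0.75 ± 0.10 and 0.72 ± 0.11 on the log2 scale. Arrdc4 went from 23.9 ± 2.03 to 40.4 ± 6.79. Txnip of the same list, at a far higher level, was lower, from 3652 ± 515 to 2580 ± 188 (log2 fold change -0.49 ± 0.10).

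Of 16 hypoxia-inducible factors and targets outside glycolysis, 13 were tested, of which 6 were lower and 4 higher (median -0.22). With AdCKO 3 and 5 alone 5 were lower and 3 higher, and at equal library totals 4 were lower and 6 higher. Pdk1, the kinase that holds pyruvate back from the mitochondria, went from 429, 470.4, 472, 393 and 428 in Control to 102, 98.0, 64.4, 117 and 101 in AdCKO (log2 fold change -2.19 ± 0.13). The oxygen sensor Egln1 and the mitophagy gene Bnip3 fell by 1.64 ± 0.13 and 1.21 ± 0.13, whereas Ndrg1 rose by 0.65 ± 0.10.

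**Figure D5:**
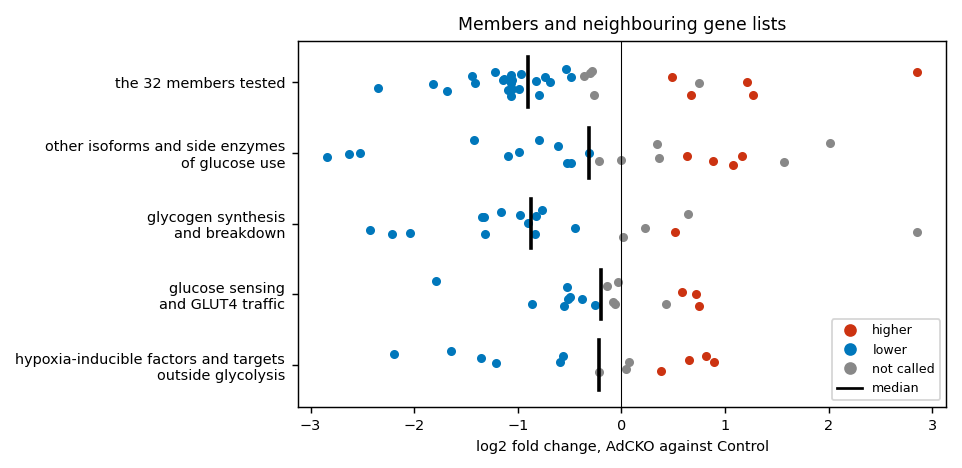
Log2 fold change in AdCKO against Control for the 32 tested members and for the tested genes of 4 further lists (21, 18, 16 and 13 genes), each point 1 gene coloured by its call, with the median as a bar. The medians of the members and of the glycogen genes lie near -0.9, those of the other 3 lists between -0.32 and -0.20.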

How the data were processed

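Polyadenylated RNA of iBAT was sequenced from 5 Control and 5 AdCKO libraries, prepared with TruSeq 2. STAR alignment to mm9, exon counting per gene with iRNA-seq and DESeq2 normalization were done by the authors, as the methods and the submitters' processing notes give; versions are not given in the sources used here. What was deposited is a signal per gene: normalized reads divided by the kb of exon counted for that gene, and not counts. They run from 0.0532 to 163946 with 0 values equal to 0, so read depth is unknown and the precision of low values with it. How values were kept above 0 is not stated, and low values may be moderated. The authors also deposited log2 fold changes, adjusted p-values and lists of changed genes, which were not used.

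Groups and replicate numbers came from the sample labels. No normalization was added. Genotypes were compared by limma 3.58.1 (R 4.3.3; lmFit, eBayes with trend, two-sided) on log2 of the value plus a pseudocount of 1, for the 11244 genes averaging at least 10 in either group, with Benjamini-Hochberg adjustment and a threshold of 0.01. The paper's count test could not be run on these values. Isoenzyme shares were compared with exact two-sided permutation tests in scipy 1.17.1, adjusted over 9 shares. The fit was tested on simulated data. Alternatives were other pseudocounts and filters, equal totals, quantile normalization, other moderation, a replicate block, a muscle score as covariate, AdCKO 3 and 5 alone, and leaving out each library. The same alternatives for the 4 further lists were added after seeing the data. Same-numbered libraries did not deviate together (correlations -0.27 to 0.10), so the numbers were not taken as pairs.

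The members and lists were chosen with earlier results of these data known. Of each further list, at most 4 called genes with the smallest p were named, with the muscle isoforms Pgam2, Eno3 and Pygm. Txnip was added beside Arrdc4 after its values were seen. Of each marker list its summed level and at most 3 genes were named. Of 5 red blood cell markers, 1 was in the table (Alas2, 31.8 to 70.5 in Control and 23.5 to 33.8 in AdCKO), and of 6 endothelial markers 1 was higher and 1 lower. Exon overlaps were read from GENCODE vM1 on mm9. There, 7 members share exon bases with another protein-coding gene and 11 with any other annotated gene. Slc2a1, Hk1 and Gpi1 share them only with genes that are not protein-coding, on the opposite strand. Tkt shares them with such a gene on its own strand. Promoter sequences are from RefSeq on GRCm38.p6, and no coordinates were converted between builds.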

Additional observations from a re-analysis of the deposited data

Results flagged for a closer look

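Among 86 groups of 5 values (each member and each isoenzyme share in each genotype), 7 had 1 library that stood apart from the other 4 by Dixon's criterion (gap over range above 0.71). Chance alone marks about 1 in 20 such groups.

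In AdCKO 5, Slc2a1 was at 42.6 normalized reads per kb, below the 57.6 to 63.5 of the other AdCKO libraries, and Pgam1 was at 986, above their 780.2 to 825. In both genes this library lay nearer to Control than the others. In AdCKO 1, Slc2a3 was at 10.3, against 5.86 to 6.78. In Control 3, Hk3 was at 10.9, while the remaining Control libraries had 4.82 to 5.77, and Slc16a1 was at 522, against 567 to 583. The share of Slc16a3 in the 2 lactate transporters was 1.50% in Control 3, against 1.21% to 1.28%. In Control 2, Ldhb was at 5310.3, against 4264 to 4546.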

How the results depend on the processing

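Of the 27 members called, 19 kept their call under each of the 21 alternatives. Leaving out 1 library at a time gave 21 to 22 members lower and 5 to 6 higher. Of all tested genes, 25.6% to 27.2% were then lower and 23.5% to 25.6% higher. The replicate block gave 21 members lower and 5 higher, against 25.2% and 23.1% of all tested genes. Under it Pfkfb3 was lost (adjusted p = 0.0134), and the other 26 called members stayed called. Quantile normalization gave 18 lower and 4 higher, against 31.1% and 22.4% of all tested genes. Equal library totals raised the median of all genes by 0.47 and gave values above 0 for 4 members that were not called, Pfkm (0.12), Pfkfb2 (0.15), Tpi1 (0.22) and Rpia (0.19). With that shift subtracted these were -0.35, -0.32, -0.25 and -0.28. That step nearly returns the main values by arithmetic and cannot test whether a member turned relative to other genes. After quantile normalization the sign turned for Aldoa (0.027) and Tpi1 (0.21), and Pkm and Ldha lost their calls. The 8 members whose call changed were Pfkfb3 (14 alternatives), Pfkp (4), Pfkfb4 (3), Pgls (2) and, under 1 alternative each, Aldoa, Pkm, Ldha and Pgk1, the last at equal totals.

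For isoenzyme shares, leaving out 1 library at a time gave differences of 7.18 to 15.4 percentage points for Pfkm, which passed 0.05 only without AdCKO 5 (exact permutation p = 0.0317), and of -0.19 to 2.88 for Ldha, negative only without AdCKO 4. In AdCKO 3 and 5 the difference for Ldha was -3.85 and that for Slc16a3 -0.394. Quantile normalization gave -0.129 for Slc16a3, 0.00732 for Aldoa and 5.16 for Pfkfb3, the last with an exact permutation p of 0.0317. The causes were not tested. Read depth is unknown, which limits Slc2a3, Aldoc, Slc16a3 and the Control level of Hk3 most.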
